A study of Mus musculus with 22 samples.

Results

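The genes examined encode 10 subunits of PRC1.6, a variant Polycomb repressive complex 1. The list was made by name, with earlier results of these data known. They are Pcgf6, Mga, Max, E2f6, Tfdp1, L3mbtl2, Wdr5, Hdac1, Hdac2 and Cbx3. All 10 were found among the 21887 protein-coding genes of the mm10 gene table. The question was where the complex's own proteins and mark lie on the genes that encode the complex. Every peak between 1 kb before a gene and 1 kb after it, gene body included, was taken from all 16 peak lists.

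PRC1 complexes carry the ubiquitin ligase RING1A or RING1B, which places the mark H2AK119ub1 on histone H2A, and are named after their PCGF subunit. In PRC1.6 that subunit is PCGF6. The complex finds DNA through sequence-specific partners: MGA, which has a T-box and a basic helix-loop-helix domain, its dimer partner MAX, and the repressor E2F6 with its dimer partner DP1, encoded by Tfdp1. L3MBTL2 is a chromatin reader with MBT repeats, WDR5 is a WD40 scaffold, HDAC1 and HDAC2 are histone deacetylases, and CBX3 is the heterochromatin protein HP1 gamma. PRC1.6 is best known for silencing germline genes in embryonic stem cells.

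The samples were crosslinked chromatin of small intestinal crypts, the stem cell-bearing pits of the epithelium, of C57BL/6 background, and of the mouse embryonic stem cell (ESC) line E14, which the labels give the same background. Crypts were wild type (WT) or had lost Pcgf6 (knockout, KO) through 1 of 2 inducible Cre lines, AhCre, induced with BNF, or Villin, induced with Tamoxifen and active in the intestinal epithelium. The series text gives male mice of 8 to 12 weeks, 7 days after induction, in a sentence on RNA, and does not say so for the ChIP crypts. Whether WT mice carried Cre or received the inducer, and whether mice were pooled, is not given in the sources used here. PCGF6 was profiled in AhCre crypts of both genotypes, RING1B and H2AK119ub1 in both genotypes of both lines, the insulator protein CTCF and the cohesin subunit RAD21 in both genotypes of Villin crypts, and PCGF6 and RING1B in WT ESC. H2AK119ub1 chromatin carried 5% Drosophila S2 chromatin as a spike, and 6 input samples had no list.

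Each group had 1 library, so no value below has a replicate error and no test was made. The lists held 1662 to 32651 peaks and no read counts, so depth is unknown, and a site without a listed peak may still hold weaker signal. A score is a −log10 significance value from the peak caller, and the sources used here do not say whether of p or of q. All listed scores were 10 or more. Scores are not scaled between libraries, so they are compared within a list. The KO list of PCGF6 still held 4779 peaks against 17163 in WT. In ESC, RING1B had a peak at 0 of 3 ESC genes (Pou5f1, Nanog and Sox2) and at 4 of 6 intestinal epithelial genes. Its share over all genes was 21.1%. In crypts RING1B lay at Sox2 in all 4 lists. Of the 6 epithelial genes it lay at 1 in AhCre WT (9.22% of all genes) and 0 in AhCre KO crypts (5.97%). In Villin crypts it lay at 2 in WT (17.0%) and 3 in KO (9.30%). In crypts H2AK119ub1 covered Sox2 in all 4 lists, Pou5f1 in the 2 AhCre lists and, of the 6 epithelial genes, only the stem cell gene Lgr5. Over all genes its shares were 20.6% and 22.5% in AhCre WT and KO, and 13.6% and 11.8% in Villin WT and KO crypts.

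PCGF6 lay at all 10 subunit genes in WT AhCre crypts, against 47.9% of all protein-coding genes. It formed 11 peaks there, 1 at each gene and 2 at Mga. The genes fell into 2 sets by score. Mga, Tfdp1, Hdac2 and E2f6 had peaks of 254 to 1678, and the other 6 genes had peaks of 14.8 to 23.8, where the median of the list was 18.1. No subunit gene lay between these ranges within 1 kb, but a further PCGF6 peak of 173 lay 3562 bp beyond an end of Wdr5. The 4 strong genes were in the top 1% of the list, where 0.777% of all genes have their strongest peak. This threshold was chosen after the scores were seen.

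**Figure D1:**
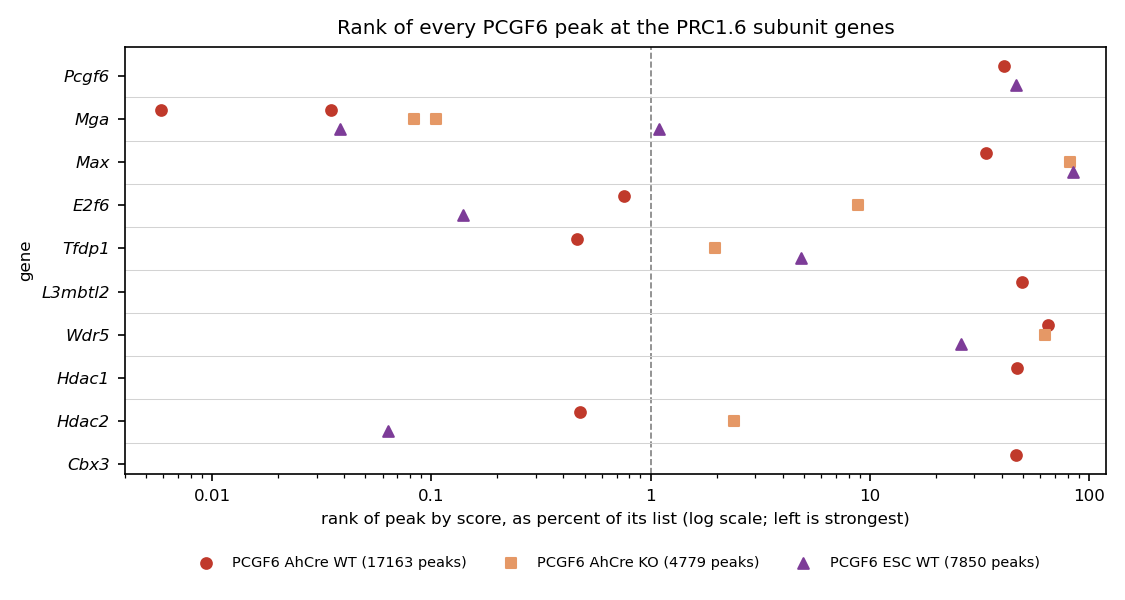
Rank of each PCGF6 peak at the 10 genes as a percent of its list, on a log axis, for AhCre WT (circles), AhCre KO (squares) and ESC (triangles); the dashed line marks 1%. Mga holds ranks 1 and 6 of the WT list, and Hdac2, E2f6 and Tfdp1 also lie left of the line in WT, while the other 6 genes lie between 33.8% and 64.9%.

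Mga, the gene of the DNA-binding scaffold subunit, had the strongest PCGF6 peak of the whole WT crypt list. That peak (chr2:119895796-119899146, score 1678, rank 1 of 17163) lay inside the annotated gene, centred 243 bp downstream of the start site that the RefSeq promoter table gives for Mga. It was 3351 bp wide, against a median width of 1026 bp. The second Mga peak (chr2:119871784-119874096, score 1180, rank 6) covered the outer start of the annotated gene, with its centre at -24288 bp from that site. In ESC both sites were again listed, with the order of scores exchanged: 567 at the outer start (rank 3 of 7850) and 198 at the inner one (rank 86).

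The other DNA-binding subunits differed in strength. At E2f6, the sequence-specific repressor, the peak (chr12:16810078-16812227) scored 254 and was centred 187 bp downstream of the start site. At Tfdp1, its dimer partner, the peak (chr8:13337756-13339569) scored 318 and ranked 79. At Max, the dimer partner of MGA, the peak (chr12:76961603-76963110) scored 23.8 and ranked 5800. In this list the genes of the dimer partners MGA and MAX were thus far apart in rank. Those of E2F6 and DP1 were close in it (130 and 79). They were less close in KO crypts (423 and 94 of 4779) and in ESC (11 and 382 of 7850).

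Among the remaining subunits, Hdac2 stood with the strong genes and its paralogue Hdac1 with the weak ones. The Hdac2 peak (chr10:36973135-36975230) scored 313 and ranked 82, and the Hdac1 peak (chr4:129542388-129543448) scored 18.9 and ranked 8026. Pcgf6 itself had a peak of 20.8 (chr19:47050342-47051479), centred at -4 bp from its start site. L3mbtl2 scored 18.3 (chr15:81663550-81664586), Wdr5 14.8 (chr2:27514598-27515661) and Cbx3 19 (chr6:51468523-51471447). The Cbx3 peak was 2925 bp wide and also lay within 1 kb of an end of its neighbour Hnrnpa2b1, so it cannot be given to Cbx3 alone. No other PCGF6 peak of a subunit gene lay within 1 kb of another protein-coding gene's end.

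The promoter table holds 9 of the 10 genes, all but Hdac1, and the WT PCGF6 peaks covered a start site at 9 of 9, against 33.6% of all genes in the table. In ESC the share was 7 of 9 (18.1% of all genes), and in KO crypts 4 of 9 (8.95%). Tfdp1 and Hdac2 had KO peaks that stopped short of the start sites in the promoter table. At Hdac2 the KO peak did cover the outer start of the annotated gene (36974297). All 11 promoter windows of the subunit genes (300 bases, from 250 before to 50 after a start) lay wholly inside a WT PCGF6 peak, against 24.9% of all such windows.

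The windows of 7 subunit genes are printed because they are the DNA under these peaks: first the 4 strong genes, then Max, Wdr5 and Pcgf6 as weak ones. They are from RefSeq, build GRCm38.p6 (mm10), 5′ to 3′ on the gene's strand. Capitals mark the E-box CACGTG, which MAX dimers read, and the E2F core TCCCGC on either strand (GCGGGA on the other).
Mga (chr2:119896978-119897277, plus strand): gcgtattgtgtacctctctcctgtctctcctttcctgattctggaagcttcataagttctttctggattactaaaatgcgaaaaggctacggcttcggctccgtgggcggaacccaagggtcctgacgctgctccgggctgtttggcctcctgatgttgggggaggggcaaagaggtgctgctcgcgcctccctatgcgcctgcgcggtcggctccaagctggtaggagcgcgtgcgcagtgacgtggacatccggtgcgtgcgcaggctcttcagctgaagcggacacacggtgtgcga
E2f6 (chr12:16810715-16811014, plus strand): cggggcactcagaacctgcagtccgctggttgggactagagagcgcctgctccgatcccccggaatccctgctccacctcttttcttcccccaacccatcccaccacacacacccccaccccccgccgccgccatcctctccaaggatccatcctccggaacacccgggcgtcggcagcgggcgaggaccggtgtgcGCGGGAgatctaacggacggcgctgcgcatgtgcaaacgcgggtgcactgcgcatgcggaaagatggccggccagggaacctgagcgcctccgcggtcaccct
Tfdp1 (chr8:13338501-13338800, plus strand): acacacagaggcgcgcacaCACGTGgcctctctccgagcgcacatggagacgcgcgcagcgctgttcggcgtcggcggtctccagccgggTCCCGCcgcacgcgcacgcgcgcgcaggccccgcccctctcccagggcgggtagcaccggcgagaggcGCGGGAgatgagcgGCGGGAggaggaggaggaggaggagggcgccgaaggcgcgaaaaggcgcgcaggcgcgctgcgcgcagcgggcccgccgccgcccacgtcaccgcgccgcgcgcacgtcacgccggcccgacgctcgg
Hdac2 (chr10:36974294-36974593, plus strand): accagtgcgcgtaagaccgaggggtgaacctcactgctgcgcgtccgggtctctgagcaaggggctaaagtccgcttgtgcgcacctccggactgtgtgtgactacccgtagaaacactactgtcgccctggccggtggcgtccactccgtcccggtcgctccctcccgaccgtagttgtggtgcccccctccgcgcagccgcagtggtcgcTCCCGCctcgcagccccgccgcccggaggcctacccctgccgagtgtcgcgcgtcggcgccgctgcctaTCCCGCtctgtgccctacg
Max (chr12:76962199-76962498, minus strand): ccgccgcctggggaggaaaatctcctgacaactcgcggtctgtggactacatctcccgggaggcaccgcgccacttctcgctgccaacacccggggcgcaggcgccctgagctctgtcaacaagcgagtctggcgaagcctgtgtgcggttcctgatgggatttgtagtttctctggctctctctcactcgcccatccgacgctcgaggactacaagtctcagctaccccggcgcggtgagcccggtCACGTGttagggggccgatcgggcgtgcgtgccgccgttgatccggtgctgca
Wdr5 (chr2:27514897-27515196, plus strand): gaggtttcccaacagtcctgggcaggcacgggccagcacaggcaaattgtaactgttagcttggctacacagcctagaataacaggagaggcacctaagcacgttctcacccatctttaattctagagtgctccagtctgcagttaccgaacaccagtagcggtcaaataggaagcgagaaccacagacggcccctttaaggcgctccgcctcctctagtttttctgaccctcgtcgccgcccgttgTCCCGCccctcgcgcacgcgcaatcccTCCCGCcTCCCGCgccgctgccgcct
Pcgf6 (chr19:47050857-47051156, minus strand): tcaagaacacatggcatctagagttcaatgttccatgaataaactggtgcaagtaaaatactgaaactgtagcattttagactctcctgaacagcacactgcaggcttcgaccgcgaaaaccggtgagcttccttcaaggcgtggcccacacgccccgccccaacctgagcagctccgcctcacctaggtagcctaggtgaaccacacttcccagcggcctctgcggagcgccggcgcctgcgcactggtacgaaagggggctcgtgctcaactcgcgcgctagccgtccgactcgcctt

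Letters that the DNA-binding subunits read were not shared by all of these promoters. The E-box CACGTG stood at Max, where it spans the start site from position -3, and at Tfdp1, from position -231. This is 2 of 9 genes, against 8.91% of all genes and 15.7% of the 4701 genes with a window wholly inside a WT PCGF6 peak. The longer E2F letters TTCCCGC, with GCGGGAA on the other strand, were in 0 of 9 (6.84% and 11.7%). Their core TCCCGC, which is contained in them, was in 4 of 9, at E2f6, Tfdp1, Hdac2 and Wdr5. That is near the 42.7% of genes with a window inside a PCGF6 peak, while 28.4% of all genes have it. The T-box letters AGGTGTGA was in 0 of 9 (1.35% and 1.21%). Mga and Pcgf6 had no match to any of these letters in the window, and neither had L3mbtl2 or Cbx3. For Mga only the window at the inner start was searched. The promoter table holds none at the outer start, so the DNA under that peak was not examined. The 11 windows had a median G and C content of 68.0% against 56.3% over all windows, and a median of 30 CpG pairs against 13. Their G and C content ran from 55.7% at L3mbtl2 to 80.7% at 1 of the 2 overlapping Tfdp1 windows. Windows inside PCGF6 peaks were not set beside these medians.

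In KO crypts PCGF6 was still listed at 6 of 10 subunit genes, against 17.7% of all genes. The 4 that lost their peak were Pcgf6, L3mbtl2, Hdac1 and Cbx3 (WT scores 18.3 to 20.8). A gene counts as having lost its peak when no KO peak lay in its window and none overlapped the WT peak, and 62.7% of all genes with a WT peak lost it. The 6 that kept one were Mga (scores 325 and 311, ranks 4 and 5 of 4779), Tfdp1 (82.5), Hdac2 (75.7), E2f6 (37.5), Wdr5 (13.0) and Max (11.1). Mga was in the top 1% of the KO list, as are 0.210% of all genes, and the other strong genes were not. Wdr5, which kept its peak, had the lowest WT score of the 10. The count of losses depends on list length. With the WT list held to its 4779 highest peaks, 0 of 10 genes counted as having lost PCGF6, since the 4 WT peaks ranked 7032 to 8474, and Max and Wdr5 counted as having gained it.

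Of the 11 WT peaks at subunit genes 7 overlapped a KO peak, against 26.9% of all WT peaks. All 5 in the top 1% did, and so did 99.4% of all top peaks. Of the 6 below it 2 did, where the share over all such peaks was 26.2%. The KO peak was narrower at all 7 sites, for example 921 bp against 2150 bp at E2f6 and 2068 bp against 3351 bp at the inner Mga start, and it was narrower at 96.9% of all WT peaks paired with 1 KO peak. At Tfdp1 and Hdac2 the KO peak lay only upstream of the start sites in the promoter table. It ended at position 13338711 at Tfdp1 and 36974360 at Hdac2. The WT RING1B peak of Villin crypts ended within 2 bp of these positions (13338710 and 36974358). The upstream ends were further apart (13337840 against 13338042 at Tfdp1, 36973435 against 36973774 at Hdac2). RING1B of AhCre WT crypts ended at 36974306 at Hdac2 and was not listed at Tfdp1. How often such ends meet over all peaks was not counted.

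**Figure D2:**
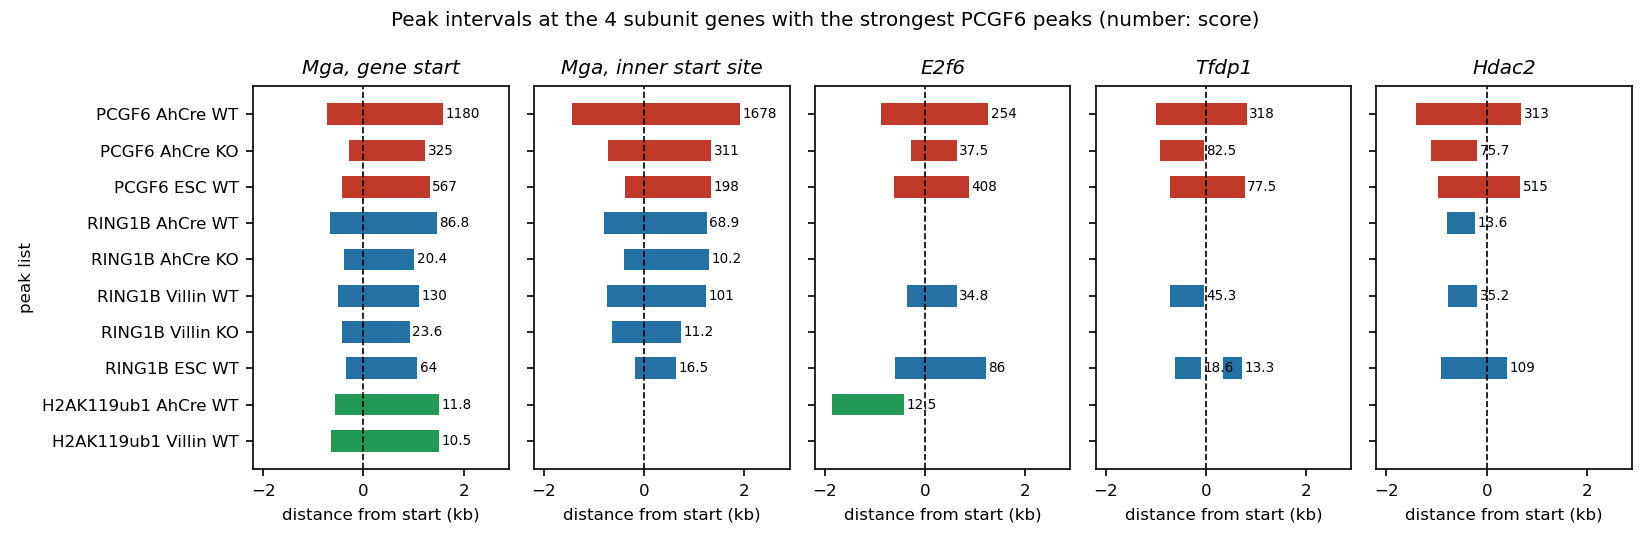
Peak intervals of PCGF6 (red), RING1B (blue) and H2AK119ub1 (green) at the 2 starts of Mga and at E2f6, Tfdp1 and Hdac2, as distance in kb from the start (dashed line), with scores beside them. RING1B lies inside the WT PCGF6 interval, and at E2f6, Tfdp1 and Hdac2 no RING1B KO interval is listed.

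In ESC, PCGF6 lay at 7 of 10 subunit genes, against 28.6% of all genes and 43.2% of genes with a crypt peak. L3mbtl2, Hdac1 and Cbx3 had none, and all 3 were also among the genes without a peak in KO crypts. All 8 ESC peaks at subunit genes overlapped a WT crypt peak, against 52.9% of all ESC peaks, and 8 of the 11 crypt peaks overlapped an ESC peak (24.1% of all crypt peaks). In the top 1% of the ESC list (0.407% of all genes) were 3 subunit genes: Mga at rank 3, Hdac2 at rank 5 (score 515) and E2f6 at rank 11 (score 408). Tfdp1 scored 77.5 and ranked 382, Wdr5 26.8, Pcgf6 18.2 and Max 11.7. The strong set was thus led by Mga in both cell types, while Tfdp1 ranked above Hdac2 and E2f6 in crypts and below them in ESC.

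**Figure D3:**
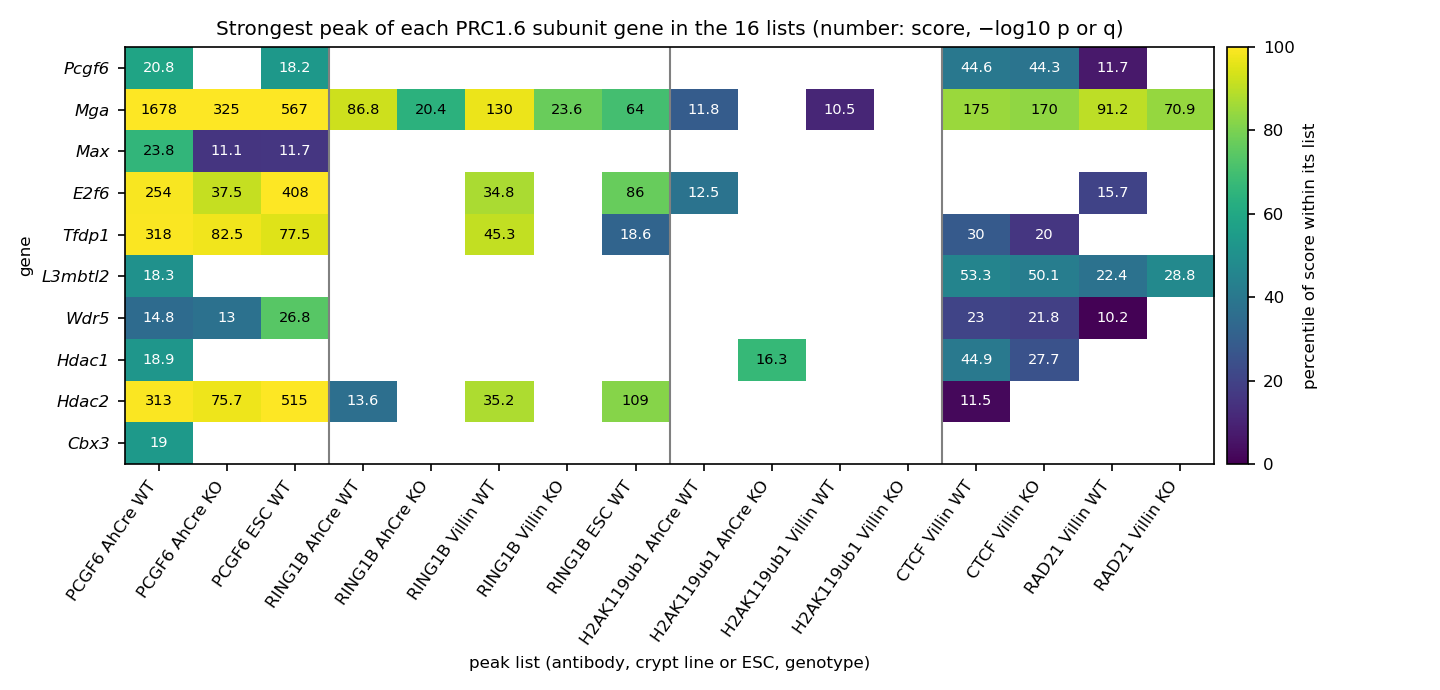
Score of the strongest peak of each gene (rows) in each of the 16 lists (columns), coloured by its percentile within that list; white means no listed peak. Every gene has PCGF6 in WT crypts, and H2AK119ub1 cells are nearly all empty. RING1B cells are filled in every RING1B list at Mga. At E2f6 and Tfdp1 they are filled in Villin WT and ESC only, and at Hdac2 in the WT lists only.

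RING1B, the catalytic subunit, was listed within 1 kb at genes of the strong PCGF6 set. In WT crypts it lay at Mga and Hdac2 in the AhCre line (2 of 10, against 9.22% of all genes). In the Villin line it lay at Mga, E2f6, Tfdp1 and Hdac2 (4 of 10, against 17.0%), and in ESC at the same 4 genes (4 of 10, against 21.1%). The 6 genes with weak PCGF6 peaks had no RING1B peak within 1 kb in any of the 5 RING1B lists. Within 5 kb 3 of them did. Hdac1 (score 11.9, 2023 bp beyond the gene) and L3mbtl2 (11.1, 4518 bp) joined in AhCre WT crypts, making 4 of 10 against 10.5% of all genes. Wdr5 (15.6, 3794 bp) joined in Villin WT crypts, making 5 of 10 against 19.1%. All 5 strong PCGF6 sites overlapped RING1B of Villin WT crypts, as did 81.9% of all PCGF6 peaks in the top 1%. None of the 6 weak sites did, where 15.2% of all weaker peaks did. Over all PCGF6 peaks the share was 15.9%, and 5 of 11 at the subunit genes.

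At Mga, RING1B scored 86.8 at the outer and 68.9 at the inner start in AhCre WT crypts, 130.3 and 101 in the Villin WT library, and 64.0 and 16.5 in ESC. The outer start was the higher of the pair in every RING1B list, whereas PCGF6 was higher at the inner start in WT crypts. In KO crypts (325 against 311) and ESC (567 against 198) PCGF6 was higher at the outer start too. Hdac2 scored 13.6 in the AhCre WT library, 35.2 in the Villin one and 109 in ESC. E2f6 (34.8 and 86.0) and Tfdp1 (45.3 and 18.6) were listed in Villin WT crypts and ESC. Both genes had no peak in AhCre WT crypts, whose list held 2368 peaks against 4403 in the Villin list. At Tfdp1 in ESC, RING1B formed 2 peaks to either side of the start sites, the second with a score of 13.3. PCGF6 peaks at subunit genes overlapped RING1B of AhCre WT crypts in 3 of 11 cases (7.20% of all PCGF6 peaks) and RING1B of ESC in 5 of 11 (12.6%). In ESC 5 of 8 PCGF6 peaks overlapped RING1B, against 45.7% of all.

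In KO crypts of both lines RING1B was listed at Mga alone (1 of 10, against 5.97% of all genes in AhCre and 9.30% in Villin crypts). In the Villin line 3 of 4 genes lost RING1B, namely E2f6, Tfdp1 and Hdac2, where 52.7% of all genes with a WT peak lost it. In the AhCre line 1 of 2 did, Hdac2, against 45.2%. Hdac2 thus lost its RING1B peak in both lines, which holds for 18.5% of genes with RING1B in WT crypts of both. Its AhCre WT peak scored only 13.6, near the listing limit of 10. With scores of 20 or more, 0 genes lost RING1B in AhCre crypts among the subunit genes. The Mga peaks of KO crypts scored 20.4 at the outer and 10.2 at the inner start in the AhCre line, and 23.6 and 11.2 in the Villin line. The inner peak was close to the lowest score listed in both. Mga ranked 178 of 2368 in AhCre WT and 592 of 1662 in AhCre KO crypts. The lists differ in length, so no change is read from these ranks. All genes with a crypt RING1B peak had one in ESC too: 2 of 2 for AhCre WT (67.2% of all genes with a crypt peak) and 4 of 4 for Villin WT (55.6%).

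H2AK119ub1, the product of RING1B, was listed at few subunit genes, in WT crypts at a share near that of all genes. In AhCre WT crypts it lay at Mga and E2f6 (2 of 10, against 20.6% of all genes, or 16% counting gene ends alone (3511 of 21887)), with scores of 11.8 and 12.5, and in Villin WT crypts at Mga (1 of 10, 13.6%), with a score of 10.5. All 3 peaks were near the lowest score listed and below the medians of their lists (13.9 and 13.2). At Mga the mark covered the outer start in both lines and never the inner one. At E2f6 it was centred at -1133 bp from the start site and reached into the upstream side of the PCGF6 peak. No WT crypt H2AK119ub1 peak lay at Hdac2 or Tfdp1, where RING1B was listed. PCGF6 peaks at subunit genes overlapped the mark in 2 of 11 cases in AhCre (13.4% of all) and 1 of 11 in Villin WT crypts (8.20%).

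In KO crypts the mark was listed at 1 of 10 genes in the AhCre line (22.5% of all genes) and at 0 of 10 in the Villin line (11.8%). Mga and E2f6 lost it in AhCre crypts (2 of 2, against 13.1% of genes with a WT peak) and Mga in Villin crypts (1 of 1, against 28.2%). Within 5 kb, 4 genes carried the mark in AhCre WT crypts and 1 lost it, against 13.4% of all genes, since E2f6 kept a KO peak 2834 bp beyond the gene, and Hdac1 and L3mbtl2 had the mark in both genotypes. Loss in both lines, as at Mga, occurred at 1.69% of genes that carried the mark in both WT lists. The WT scores lay close to the listing limit of 10, and the part of depth in these losses was not tested. With WT and KO lists of equal length, 0 genes lost the mark in Villin crypts. The 1 KO peak was at Hdac1 (score 16.3). It lay at the end of the gene away from the PCGF6 peak, within 1 kb of the neighbour Marcksl1, and overlapped a WT peak outside the window, so it does not count as gained.

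By the matching rule for gains, no subunit gene gained a peak. For PCGF6 none could, since all 10 had a WT peak. The genes without a WT peak numbered 8 and 6 for RING1B (AhCre and Villin), 8 and 9 for H2AK119ub1, 3 for CTCF and 5 for RAD21, too few to show a difference from all genes. Over all genes without a WT peak the shares that gained one were 0.166% for PCGF6, 1.02% and 1.59% for RING1B (AhCre and Villin), 5.80% and 2.45% for H2AK119ub1, 3.25% for CTCF and 3.22% for RAD21.

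CTCF was listed at 7 of 10 subunit genes in Villin WT crypts (49.0% of all genes) and at 6 in KO crypts (47.7%). Mga had its strongest CTCF peak beyond the far end of the gene (chr2:119970279-119971076), with scores of 175 in WT and 170.3 in KO crypts, together with RAD21 (91.2 and 70.9). Pcgf6 (44.6 and 29.5 in WT, 38.7 and 44.3 in KO) and Tfdp1 (30.0 and 20) had CTCF in the gene body. L3mbtl2 had it in the body (53.3 and 50.1) and at the start (25.0 and 17.4), where it overlapped the PCGF6 peak. At Wdr5 (23.0 and 21.8) and Hdac1 (26.5 and 14) CTCF also overlapped it, as did a peak of 11.5 at Hdac2. That gene was the 1 of 7 that lost CTCF, where 5.94% of all genes did. In all, 4 of 11 PCGF6 peaks overlapped CTCF of WT crypts, against 32.3% of all PCGF6 peaks.

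RAD21 was listed at 5 of 10 genes in WT (38.9% of all genes) and at 2 in KO crypts (32.6%). Pcgf6 (11.7), E2f6 (15.7) and Wdr5 (10.2) lost it, 3 of 5 against 21.3% of all genes with a WT peak. The count was 1 with WT and KO lists of equal length and 0 with scores of 20 or more. Within 5 kb it was 2 of 6, and E2f6 had RAD21 beyond the gene in KO crypts (55.1, 42.8 and 74.4). The 3 peaks lost within 1 kb were the RAD21 peaks that overlapped PCGF6 at subunit genes (3 of 11, against 33.9% of all PCGF6 peaks). None of these lost peaks had a KO counterpart, which the loss rule itself requires. Mga and L3mbtl2 (22.4 in WT, 28.8 in KO) kept RAD21 at their CTCF sites. The WT RAD21 list held 20653 peaks and the KO list 17762.

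**Figure D4:**
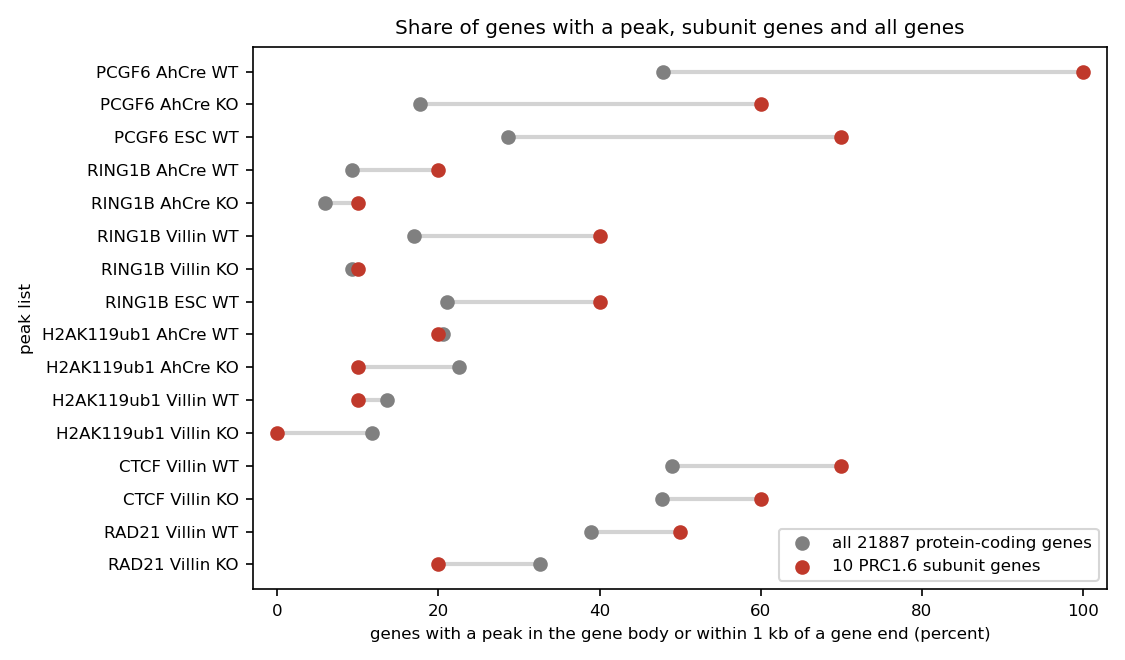
Percent of the 10 subunit genes (red) and of all 21887 protein-coding genes (grey) with a peak in the gene body or within 1 kb of a gene end, in each of the 16 lists. The subunit genes lie above all genes in the PCGF6 lists (10, 6 and 7 of 10) and less than 1 gene away from them in both H2AK119ub1 WT lists (2 of 10 against 20.6%, 1 of 10 against 13.6%).

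A longer gene catches more peaks by this window. The subunit genes were 13551 to 97627 bp long, with a median of 24741 bp against 17169 bp over all genes. The start-site counts above do not depend on gene length.

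The 40 relatives of the subunits were counted the same way, from lists made with earlier results of these data known. PCGF6 was listed at 32 of 40 in WT crypts (47.9% of all genes), 13 in KO crypts (17.7%) and 18 in ESC (28.6%). The families below are each too small to be read against the 47.9%. All 11 genes of the wider MAX network had it in WT crypts, led by the MAX-binding repressor genes Mnt (67.6) and Mxd3 (54.5), with Myc at 11.8. Of the PRC1 core partners, all 4 did: Rybp (37.8), Ring1 (27.9), Yaf2 (16.1) and Rnf2 (10.7), which encodes RING1B. The other PCGF genes had it in 4 of 5 cases, of which Pcgf2 (47.9) was the highest and Pcgf3 had none. E2F and DP relatives had it in 5 of 8 cases (Tfdp2 37.8, E2f7 35.5), HP1 and class I HDAC relatives in 3 of 4 (Cbx5 59.3), WDR5 partners in 4 of 5 (Dpy30 165) and MBT relatives in 1 of 3 (L3mbtl3 10.1). No relative reached the scores of the 4 strong subunit genes.

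Among the relatives, RING1B was listed at 11 of 40 in AhCre (9.22% of all genes) and 16 of 40 in Villin WT crypts (17.0%). It was strongest at Bmi1, the PCGF4 gene of canonical PRC1, with 296 in AhCre WT and 209.8 in AhCre KO crypts. Bmi1 had a PCGF6 score of 10.9, and H2AK119ub1 scores of 48.5 and 50.8 in AhCre WT and KO crypts. Losses at the relatives were near the shares over all genes for PCGF6 (20 of 32, against 62.7%) and RING1B (5 of 11 in AhCre, against 45.2%, and 8 of 16 in Villin crypts, against 52.7%). H2AK119ub1 was lost at 4 of 18 (13.1%) and 4 of 9 (28.2%).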

How the data were processed

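The authors deposited 1 peak list per ChIP library, with a −log10 score for each peak. Per the labels, the WT input was the reference for peak calling. The genome builds, mm10, dm6 and hg38, stand in the submitters' processing notes with no role given, next to MACS2 (2.1.1) and Bowtie (1.1.2 as well as 1.2.2). Other settings are not given in the sources used here. One description line of each ESC sample exchanges PCGF6 and RING1B, and titles and antibody tags were used. Chromosomes 1 to 19, X and Y were kept (21 peaks lay elsewhere), with 1-based positions.

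A gene had a peak when at least 1 bp lay in the gene or within 1 kb of it. Peaks matched at 1 bp of overlap. Start sites, strands and promoters come from RefSeq GRCm38.p6. Percentages beside counts are shares of all protein-coding genes, or of all peaks, under the same rule. No test was made, because each group had 1 library. Overlap counts were checked against bedtools 2.31.1 and differed in 0 of 4 pairs. With 200 peaks deleted from a copy of a real list, the overlap step left those 200 unmatched, as working code must. The loss rule for genes was not checked in this way. The members, lists, letters and alternatives were chosen with earlier results of these data known. Genes named are the 10 subunits, the listed relatives, the marker genes, neighbours at a shared peak and the 5 genes most like Mga. Alternatives were other windows, a score minimum of 20, lists of equal length, an overlap of 50% of the shorter peak and shorter E2F letters. Python 3.11.15, numpy 2.4.6, pandas 2.3.3 and matplotlib 3.10.9 were used.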

Additional observations from a re-analysis of the deposited data

How the results depend on the processing

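Of 174 comparisons with an alternative setting over 49 counts, 126 stayed within 1.5 times the main count and 48 did not. Many of the 126, chiefly counts of gains, were 0 under both settings, so they say little on stability. With scores of 20 or more, members with a peak numbered 6 for PCGF6 AhCre WT, 1 for RING1B AhCre WT, 2 for RAD21 WT and 0 for H2AK119ub1 in AhCre WT, AhCre KO and Villin WT. Losses numbered 2 for PCGF6 and 0 for RING1B AhCre, H2AK119ub1 in both lines, CTCF and RAD21. Members in both crypts and ESC numbered 4 for PCGF6 and 1 for RING1B AhCre. Member PCGF6 peaks overlapping another list numbered 5 for PCGF6 ESC, 3 for RING1B ESC, 1 for RING1B AhCre KO, 1 for RING1B Villin KO, and 0 for H2AK119ub1 AhCre WT, H2AK119ub1 Villin WT, CTCF WT, CTCF KO and RAD21 WT.

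With every list held to the 1662 highest peaks, members with a peak numbered 4 for PCGF6 AhCre WT, 4 for PCGF6 ESC, 2 for RING1B ESC and 0 for H2AK119ub1 AhCre WT, AhCre KO and Villin WT, and for CTCF and RAD21 in both genotypes. With WT and KO lists of equal length, PCGF6 losses numbered 0 and gains 2, H2AK119ub1 losses in Villin crypts 0 and RAD21 losses 1. A window of 5 kb gave 4 members for RING1B AhCre WT, 5 for RING1B Villin WT, 4, 3, 2 and 1 for H2AK119ub1 (AhCre WT, AhCre KO, Villin WT, Villin KO), 4 for RAD21 KO, 2 RING1B losses and 1 H2AK119ub1 loss in AhCre crypts. Gene ends alone gave 1 for RAD21 KO, an overlap of 50% gave 1 for H2AK119ub1 AhCre WT, and the shorter E2F letters gave 4 genes.

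Fewer peaks enter under the score minimum and the shortened lists, by construction. The cause of the other differences was not tested. Shares over all genes are not given for the score minimum, the shortened or equal lists, or most 5 kb counts. Shifts at the subunit genes under those settings therefore cannot be told from shifts over all genes. No paired analysis was possible because each group had 1 library. No replicate was left out for the same reason, and the lists hold no read counts to show depth.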

Other observations

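The genes whose pattern over the 16 lists was most like that of Mga were Ttc7, Tfap4, Neto2, Vipr1 and Zfp516. Likeness was the mean absolute difference, over the 16 lists, of the within-list percentile of the strongest peak (0 where there was none). It was 12.6 for Ttc7, 12.7 for Tfap4, 13.7 for Neto2, 15.5 for Vipr1 and 15.8 for Zfp516, against a median of 62.0 over 21886 genes. Neto2 had PCGF6 at the 99.6 percentile in WT crypts, 94.7 in KO crypts and 98.8 in ESC, and H2AK119ub1 in WT crypts of both lines (percentiles 23.0 and 63.4) with none in either KO list. Unlike Mga, it had no RING1B peak in AhCre KO crypts. Ttc7 and Tfap4 had no H2AK119ub1 peak in any list.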
